A study of Mus musculus with 4 samples.

Results

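The genes described here are the 10 genes of osteoclast differentiation and of the RANKL axis, chosen by name: Tnfsf11, Tnfrsf11a, Tnfrsf11b, Nfatc1, Acp5, Dcstamp, Ocstamp, Atp6v0d2, Itgb3 and Oscar. Each matched 1 of the 54532 genes of the deposited table, and 7 of the 10 were among the 12176 genes that averaged 1 FPKM or more and were tested. FPKM is a read abundance scaled to the length of the gene and the size of the library. RNA was sequenced from cells of CB6F1 mice, an F1 hybrid laboratory strain, that the labels call MSCs, the abbreviation for mesenchymal stromal cells. They were obtained by digesting whole bone marrow and grown in high-glucose DMEM with FBS, and all sample titles carry the term aGVHD. In 2 libraries the cells had been given a compound named only R at 0.5 µM (the labels write "um"), and in 2 libraries the vehicle, DMSO. The labels give neither the sex and age of the mice nor the duration of treatment, and do not say whether replicates came from separate animals or cultures. The p-values therefore measure only the spread between these libraries, which may be technical.

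Osteoclasts are the multinucleated cells that resorb bone, and they form by fusion of precursors of the monocyte and macrophage lineage. Stromal and osteoblast lineage cells display the ligand RANKL, encoded by Tnfsf11, which binds the receptor RANK on the precursor, encoded by Tnfrsf11a. The same stromal cells secrete osteoprotegerin, encoded by Tnfrsf11b, a soluble decoy that captures RANKL. RANK signalling induces the transcription factor NFATc1, which switches on the genes for fusion, for attachment to bone and for acid secretion. Whole marrow cultures can hold both the stromal and the myeloid side of this exchange.

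The libraries held transcripts of both sides. The 15 macrophage and monocyte markers summed to 11208 and 9310 FPKM in R replicates 1 and 2 and to 17854 and 15720 FPKM in vehicle replicates 1 and 2. Lyz2 alone made up most of these sums, at 8891 and 7061 FPKM in R and 14569 and 12540 FPKM in vehicle. It did not pass limma's test (Benjamini-Hochberg adjusted p = 0.321). Of the 14 markers tested, 13 had log2 fold changes below 0. Limma called 2 of them lower, Fcgr1 and Itgam, against 1.37% of all tested genes. The Itgam call was lost in some of the alternative fits, as given below. The first 3 of the list were at 406 to 753 FPKM for Cd68, 215 to 253 for Adgre1 and 418 to 520 for Csf1r. The 12 mesenchymal stromal markers summed to 1884 and 1928 FPKM in R and to 1460 and 1445 FPKM in vehicle. Col1a1, Col1a2 and Cxcl12 made up most of these sums. Col1a1 was at 852 and 795 FPKM in R and 532 and 526 FPKM in vehicle. Col1a2 was at 414 and 434 FPKM in R and 282 and 291 FPKM in vehicle, while Cxcl12 overlapped between the groups. Of the 10 markers tested, 8 had log2 fold changes above 0 and 0 passed limma's test. An unadjusted p under 0.05 was reached by 3, against 16.0% of all tested genes. Cxcl12 was at 462 to 517 FPKM and Pdgfra at 10.7 to 14.9, while Lepr was under 1 FPKM in every library. Osteoblast lineage genes were present at low to moderate levels, with Runx2 at 3.66 to 4.32 FPKM, Sp7 at 3.54 to 4.50 and Alpl at 14.7 to 17.9. Of the 9 on that list 5 were tested and limma called 0. Against 16.0% of all tested genes, 2 of the 5 had an unadjusted p under 0.05. These were Ibsp, which encodes bone sialoprotein, at 1.18 and 2.49 FPKM in R and 6.20 and 8.89 FPKM in vehicle, and Bglap2 at 4.84 and 2.93 FPKM in R and 6.98 and 6.03 FPKM in vehicle. Bglap, an osteocalcin gene below the filter, was at 1.26 and 0.716 FPKM in R and 0.367 and 0.271 FPKM in vehicle. This came from 15 and 8 reads in R and 4 and 3 reads in vehicle. Sost was at 0 in every library. The defining markers Cd3e, Cd3d and Cd3g of T cells and S100a9 and Elane of neutrophils were at 0 in all 4 libraries. Other genes of these lists were present: Cd4, which macrophages can also express, was at 6.35 to 8.14 FPKM, Trac at 0.179 to 0.388, Camp at 1.12 to 1.85 and S100a8 at 0 to 0.224. Of the B cell markers, Cd79a was at most 0.285 FPKM and Cd79b at most 2.22. Among dendritic cell markers, Flt3 was at most 0.018 FPKM, Zbtb46 at most 0.311 and Itgax at most 0.395. The endothelial genes Pecam1, Cdh5 and Kdr were at most 1.43, 3.64 and 0.666 FPKM. In bulk RNA, fewer cells of a type and less RNA per cell cannot be told apart.

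At the level of the libraries, the R replicates differed from each other by gene length. Among tested genes of at most 2911 bp of exon, values in R replicate 2 minus those in R replicate 1, as log2(FPKM + 1), had a median of -0.26. Among those of at least 5536 bp the median was 0.19. The same medians between the vehicle replicates were -0.09 and 0.07. Results that rest on an R library are given with and without it. When 1 R library is left out, the other is alone in its group and is assumed to vary like the vehicle pair. The spread then comes from the vehicle pair and from limma's moderation, which draws each gene's spread toward that of all tested genes. The median SE over tested genes was 0.15 with 4 libraries, 0.12 without either R library and 0.28 without either vehicle library, so a call that appears without an R library is no replicate check.

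Of the 12176 tested genes, limma called 0.345% higher and 1.37% lower in the R libraries, at a threshold of 0.05 on the Benjamini-Hochberg adjusted p. These were 42 and 167 genes, where rescaling each library to TPM gave 58 and 124 and removal of a length trend 222 and 331. Of the 7 tested genes of the axis, 0 were called in either direction. Voom on recovered reads also called 0 of the 6 it could test, where it called 0.675% of all its genes higher and 2.01% lower. At an unadjusted p under 0.05 there were 2 of the 7, Atp6v0d2 and Itgb3, and 16.0% of all tested genes. R and vehicle values were fully separated in 5 of the 7 genes, against 47.9% of all tested genes. Log2 fold changes were above 0 for 3 and below 0 for 4, with a median of -0.12, where the median of all tested genes was 8.3e-05. With 2 libraries against 2, an exact permutation test of a single gene cannot give a two-sided p below 0.333.

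In level, osteoprotegerin stood above the other 9 genes and the fusion genes were at the bottom. Mean levels over the 4 libraries were 41.0 FPKM for Tnfrsf11b, 9.33 for Nfatc1, 7.65 for Tnfrsf11a, 5.92 for Atp6v0d2, 3.54 for Itgb3, 1.06 for Tnfsf11 and 1.003 for Acp5. Below the filter lay Oscar at 0.200 FPKM, Dcstamp at 0.0461 and Ocstamp at 0.0226. In this order the values of neighbours overlapped between Nfatc1 and Tnfrsf11a, between Tnfrsf11a and Atp6v0d2, between Atp6v0d2 and Itgb3, and between Tnfsf11 and Acp5. Of all genes above 0 in some library, 94.9% were at a lower mean than Tnfrsf11b, 51.7% lower than Tnfsf11 and 12.7% lower than Ocstamp.

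**Figure D1:**
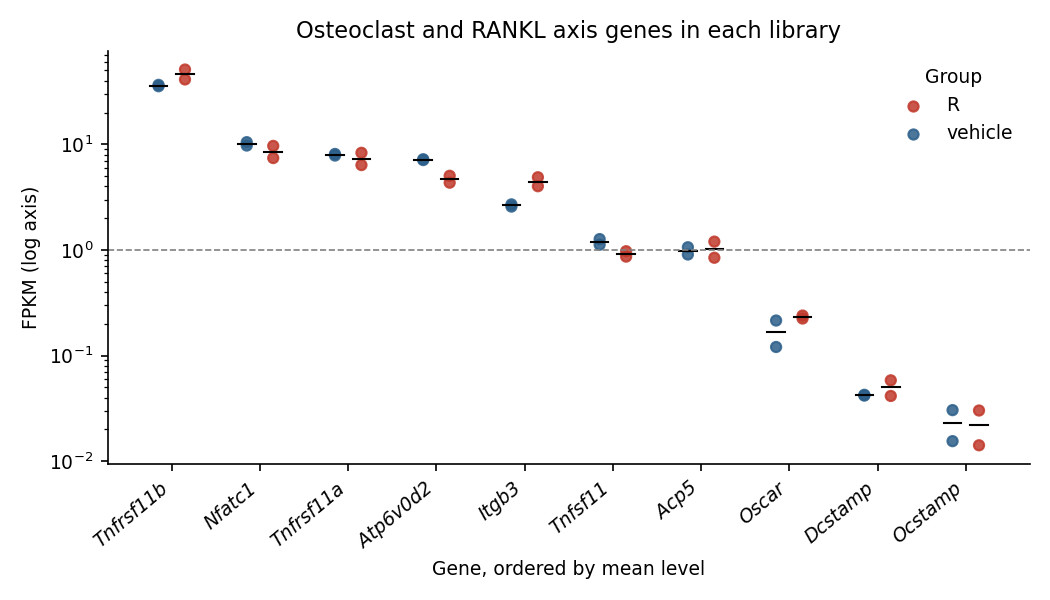
FPKM of the 10 genes in each library on a log axis, ordered by mean level, with points for single libraries, short bars for group means (n = 2) and a dashed line at 1 FPKM, the minimum mean for testing. Tnfrsf11b lies at 35.5 to 51.0 FPKM and Dcstamp and Ocstamp below 0.06 FPKM in all 4 libraries.

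The ligand gene Tnfsf11 (ENSMUSG00000022015) spans positions 78277445 to 78308043 of chromosome 14 in GRCm38, by the GENCODE M21 annotation used for all positions here. It was at 0.973 and 0.865 FPKM in R replicates 1 and 2 and at 1.27 and 1.12 FPKM in vehicle replicates 1 and 2. Both R libraries were below both vehicle libraries. These values rest on 42, 35, 50 and 45 reads, and the exact 95% Poisson interval of the lowest count, 24.4 to 48.7 reads, holds 3 of the 4 counts. Such intervals cover counting error only. The log2 fold change was -0.19 (SE 0.15) with a 95% interval of -0.57 to 0.18, and the test was not passed (limma, Benjamini-Hochberg adjusted p = 0.609).

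RANK itself, encoded by Tnfrsf11a (ENSMUSG00000026321, chromosome 1, 105780718 to 105847981), was at 6.36 and 8.31 FPKM in the R libraries and at 8.11 and 7.83 FPKM in the vehicle libraries. The groups overlapped, and the R replicates lay on either side of the vehicle values. The log2 fold change was -0.12 (SE 0.15) with a 95% interval of -0.49 to 0.26 (limma, Benjamini-Hochberg adjusted p = 0.766). Its sign turned to 0.05 without R replicate 1 and was -0.28 without R replicate 2.

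Osteoprotegerin, encoded by Tnfrsf11b (ENSMUSG00000063727, chromosome 15, 54250619 to 54278484), was at 41.1 and 51.0 FPKM in R and at 36.5 and 35.5 FPKM in vehicle. Both R libraries were above both vehicle libraries, and the R libraries were further apart, at 46.1 ± 7.02 against 36.0 ± 0.759 FPKM (SD, n = 2 each). The log2 fold change was 0.34 (SE 0.15) with a 95% interval of -0.03 to 0.71, and the test was not passed (limma, Benjamini-Hochberg adjusted p = 0.343). Without R replicate 1 the log2 fold change was 0.49, and without R replicate 2 it was 0.19. Without vehicle replicate 1 or 2 it was 0.36 and 0.32. The mesenchymal stromal markers had a median log2 fold change of 0.29 in the same comparison, with 0 of 10 called, and their part in the difference was not tested.

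In every library the decoy was far above the ligand. Tnfrsf11b FPKM was 42.2 and 59.0 times Tnfsf11 FPKM in R replicates 1 and 2, and 28.8 and 31.6 times in vehicle replicates 1 and 2. The ratio of ligand to decoy does not depend on the scaling of the library. On the log2 scale it was -5.64 ± 0.34 in R and -4.92 ± 0.09 in vehicle (SD, n = 2 each), a difference of -0.73. The ratio was taken from FPKM without the added 1 of the fold changes, and was not a planned measure. Its ligand side rests on 35 to 50 reads per library. Leaving out R replicate 1 or 2 gave differences of -0.97 and -0.48. The groups did not overlap, which in the exact two-sided permutation test gives p = 0.333, the smallest that this design allows.

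The transcription factor gene Nfatc1 (ENSMUSG00000033016, chromosome 18, 80606205 to 80713071) was at 7.42 and 9.66 FPKM in R and at 9.74 and 10.5 FPKM in vehicle. The higher R library fell just short of the lower vehicle library. The log2 fold change was -0.23 (SE 0.15) with a 95% interval of -0.61 to 0.15 (limma, Benjamini-Hochberg adjusted p = 0.537). Without R replicate 1 it shrank to -0.06, and without R replicate 2 it was -0.40 (adjusted p = 0.095 in limma).

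The integrin gene Itgb3 (ENSMUSG00000020689, chromosome 11, 104608000 to 104670476) had the largest positive difference of the 7. It encodes the beta-3 chain, which with the alpha-v chain forms the vitronectin receptor that anchors osteoclasts to bone. It was at 4.01 and 4.88 FPKM in R and at 2.57 and 2.70 FPKM in vehicle, and both R libraries were above both vehicle libraries. The ratio of group means was 1.69, and the log2 fold change was 0.58 (SE 0.14) with a 95% interval of 0.23 to 0.92. After adjustment over all genes the test was not passed (limma, unadjusted p = 0.0066, Benjamini-Hochberg adjusted p = 0.125). Voom on the 268 to 521 reads per library gave a log2 fold change of 0.74 at adjusted p = 0.0743. In limma the log2 fold change was 0.69 without R replicate 1 and 0.46 without R replicate 2. It was 0.55 without vehicle replicate 1 and 0.60 without vehicle replicate 2. Itgav, the gene of the alpha-v partner, was at 11.0 and 16.9 FPKM in R and at 11.2 and 12.8 FPKM in vehicle, and overlapped.

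Itgb3 is also a platelet gene, where its partner is the alpha-IIb chain encoded by Itga2b. Of 8 megakaryocyte and platelet markers, 6 were under 1 FPKM in every library, among them Itga2b at 0.286 to 0.703 FPKM. Gp1bb and Gp6 were at 0 in all 4 libraries, Gp9 was at most 0.129 FPKM and Gp1ba at most 0.492. Pf4, platelet factor 4, was at 159 to 228 FPKM. The summed level of the list was 231 and 161 FPKM in R and 164 and 168 FPKM in vehicle. Pf4 alone made up nearly all of these sums, so they describe Pf4 and not the list as a set. Ppbp, the other tested gene of the list, was at 1.005 and 0.766 FPKM in R and at 1.52 and 2.16 FPKM in vehicle. Its log2 fold change was -0.58 (limma, unadjusted p = 0.0187, Benjamini-Hochberg adjusted p = 0.203), so the test was not passed. Of the mesenchymal stromal markers, 8 of 10 tested had log2 fold changes above 0 and 0 were called, and their part in the Itgb3 difference was not tested.

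Atp6v0d2 (ENSMUSG00000028238, chromosome 4, 19876841 to 19922605) had the largest negative difference. It encodes the d2 subunit of the membrane sector of the proton pump, which osteoclasts use to acidify bone and which is also needed for their fusion. It was at 5.04 and 4.34 FPKM in R and at 7.10 and 7.22 FPKM in vehicle, and both R libraries were below both vehicle libraries. The mean was 1.53 times as high in vehicle as in R. The log2 fold change was -0.52 (SE 0.13) with a 95% interval of -0.84 to -0.21 (limma, unadjusted p = 0.00645, Benjamini-Hochberg adjusted p = 0.124), so the test was not passed. Without R replicate 1 the log2 fold change was -0.61, and without R replicate 2 it was -0.43. Without vehicle replicate 1 or 2 it was -0.54 and -0.51. The macrophage and monocyte markers had a median log2 fold change of -0.64, with 2 of 14 called lower against 1.37% of all tested genes. Their part in the Atp6v0d2 difference was not tested.

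Acp5 (ENSMUSG00000001348, chromosome 9, 22126727 to 22135711) encodes tartrate-resistant acid phosphatase, the enzyme used to stain osteoclasts. It was at 1.20 and 0.844 FPKM in R and at 1.06 and 0.906 FPKM in vehicle, from 31 to 47 reads per library. The vehicle values lay between the R values. The log2 fold change was 0.02 (SE 0.17) with a 95% interval of -0.40 to 0.44 (limma, Benjamini-Hochberg adjusted p = 0.966), and its sign turned without R replicate 1 (-0.10) and without vehicle replicate 2 (-0.03).

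The remaining 3 genes were below the filter of 1 FPKM. With a filter at 0.1 FPKM Oscar had a limma adjusted p = 0.795, and with no filter Dcstamp and Ocstamp were at 0.907 and 0.999. Oscar (ENSMUSG00000054594, chromosome 7, 3609813 to 3616157), a receptor that gives osteoclast precursors a co-stimulatory signal through an ITAM adaptor, was at 0.224 and 0.239 FPKM in R and at 0.215 and 0.121 FPKM in vehicle. This came to 8 and 8 reads in R and 7 and 4 reads in vehicle. Although the R values lay above the vehicle values, the 95% Poisson interval of the lowest count runs from 1.09 to 10.2 reads and includes the other 3. Dcstamp (ENSMUSG00000022303, chromosome 15, 39745930 to 39760938) and Ocstamp (ENSMUSG00000027670, chromosome 2, 165393760 to 165400405) encode the multispanning membrane proteins required for osteoclast precursors to fuse. Dcstamp had 3 and 2 reads in R and 2 and 2 in vehicle, at 0.0584, 0.0415, 0.0426 and 0.0418 FPKM. Ocstamp had 1 and 2 reads in R and 1 and 2 in vehicle, at 0.0142, 0.0302, 0.0155 and 0.0305 FPKM. A difference between the groups was not detectable at this depth for either gene. Calcr, the calcitonin receptor gene of mature osteoclasts, was at 0 in every library, a gene named after its values were seen.

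**Figure D2:**
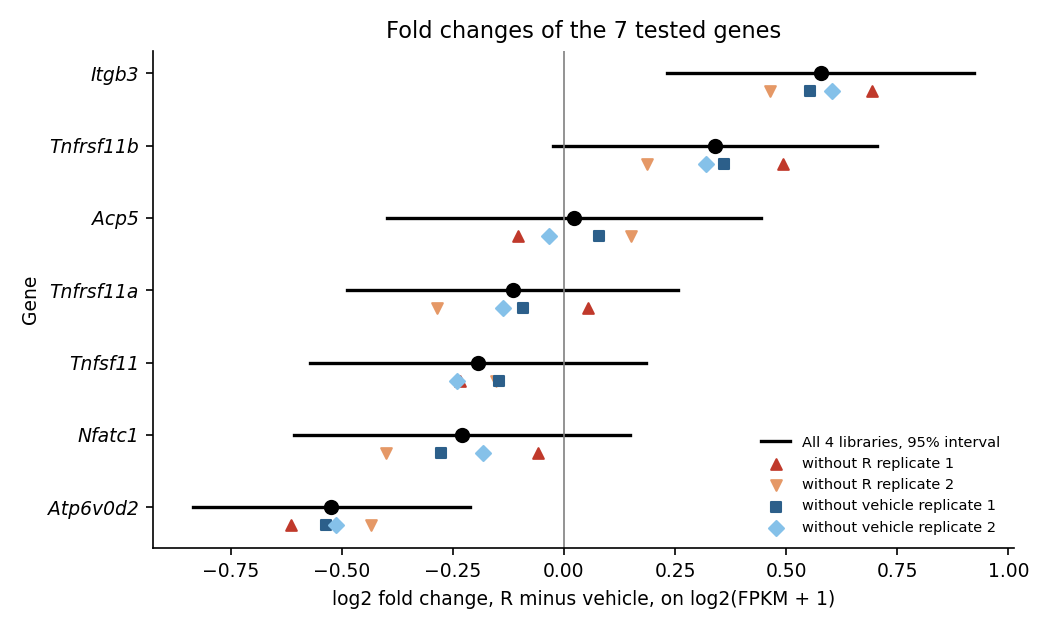
Log2 fold changes of the 7 tested genes (R minus vehicle, log2(FPKM + 1) scale), with black points and lines for the fit of all 4 libraries and its unadjusted 95% interval, and symbols for the fits that leave out 1 library. The intervals of Itgb3 and Atp6v0d2 exclude 0, at 0.23 to 0.92 and -0.84 to -0.21, and Acp5 and Tnfrsf11a change sign when R replicate 1 is left out.

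The length pattern between the R replicates ran through these genes as well. The longer genes were higher in R replicate 2 than in R replicate 1. On the log2(FPKM + 1) scale these differences were 0.34 for Tnfrsf11a with 5985 bp of exon, 0.34 for Nfatc1 with 7469 bp and 0.23 for Itgb3 with 5901 bp. Of the shorter genes, Acp5 with 2030 bp, Atp6v0d2 with 2716 bp and Tnfsf11 with 2236 bp were lower by -0.25, -0.18 and -0.08. Tnfrsf11b, with 2818 bp, was higher by 0.30 in R replicate 2, where the median of its length class was -0.26. After removal of each library's length trend, an alternative chosen after the data were seen, the log2 fold changes of Itgb3, Atp6v0d2 and Tnfrsf11b were 0.58, -0.49 and 0.37. Their Benjamini-Hochberg values in limma were adjusted p = 0.0528, adjusted p = 0.0547 and adjusted p = 0.251.

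**Figure D3:**
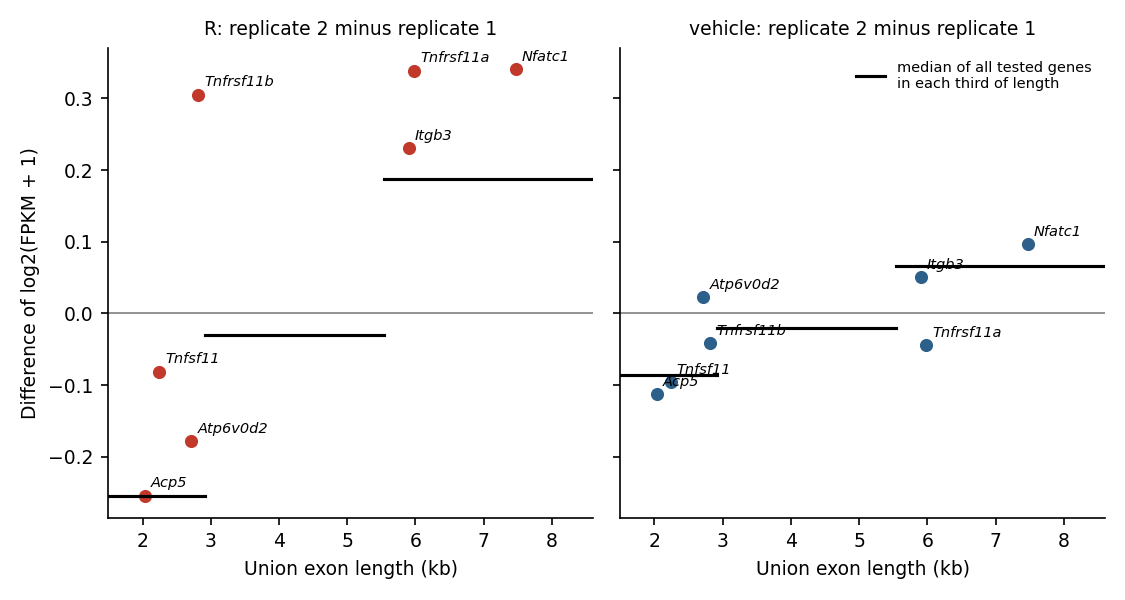
Difference of log2(FPKM + 1) between replicate 2 and replicate 1 of R (left) and vehicle (right) for the 7 tested genes against union exon length in kb, with black lines for the median of all tested genes in 3 length classes. In R the medians run from -0.26 in the shortest to 0.19 in the longest class, and in vehicle from -0.09 to 0.07.

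Further genes of the pathway were read from 9 lists with 145 distinct genes. Of the 127 tested, 1 was higher and 3 were lower in R after adjustment over all genes, against 0.345% and 1.37% of all tested genes. The median log2 fold change was -0.12, and 37 had an unadjusted p under 0.05, against 16.0% of all tested genes. On the TPM scale 3 were higher (Mmp9, Tnfrsf12a and Cebpa, the last named after its values were seen) and 0 lower. In that fit 0.476% of all genes were called higher and 1.02% lower. The limma adjusted p there was 0.0676 for Itgam, 0.0842 for Osmr and 0.1285 for Ptger4. With a filter at 0.1 FPKM 1 of 140 was higher and 0 lower, against 0.106% and 0.581% of all genes. The limma adjusted p was then 0.0739 for Itgam, 0.0743 for Osmr and 0.0973 for Ptger4. With no filter 0 of 144 and 0 of all 24958 genes were called, and the same 3 genes were at 0.148, 0.171 and 0.181, with Mmp9 at 0.126. Removal of the length trend gave 6 higher and 9 lower, against 1.82% and 2.72% of all genes. Voom on recovered reads called 3 higher and 5 lower of 120, against 0.675% and 2.01% of all its genes. Without R replicate 1 the counts were 5 higher and 18 lower, in a fit that called 2.56% and 5.46% of all genes. Without R replicate 2 they were 7 and 12, against 3.60% and 3.37% of all genes. Without vehicle replicate 1 they were 1 and 1, against 0.788% and 1.59%, and without vehicle replicate 2 they were 1 and 2, against 1.23% and 2.13%.

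**Figure D4:**
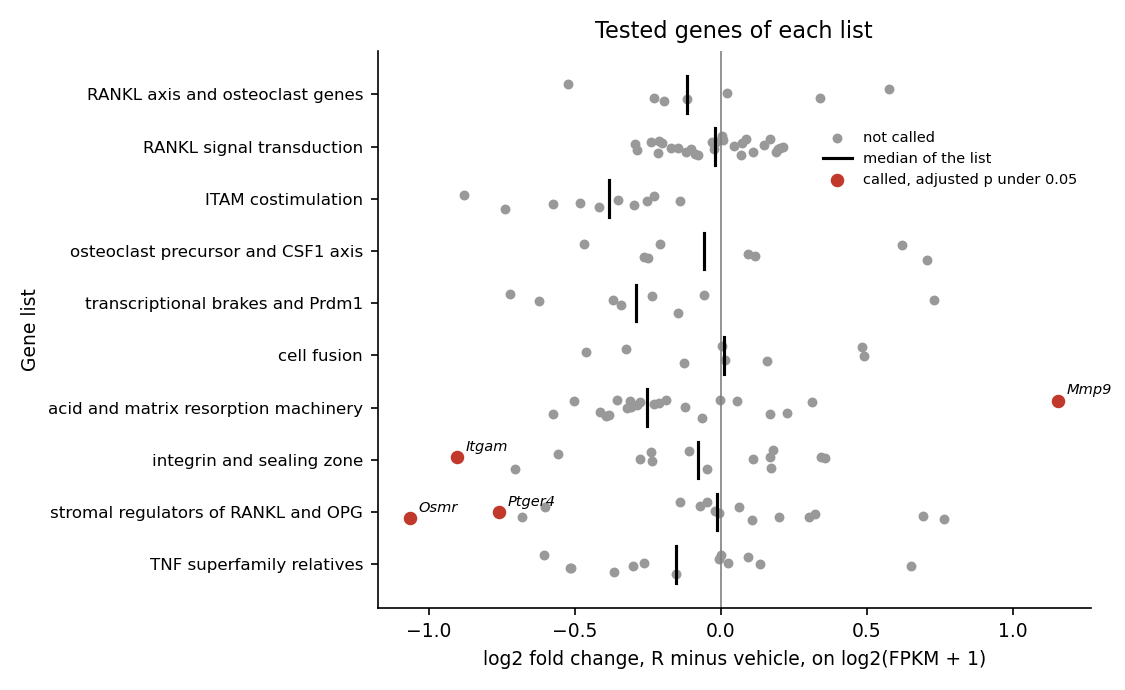
Log2 fold changes (R minus vehicle, log2(FPKM + 1) scale) of the tested genes of the RANKL axis and of 9 pathway lists, with 1 point per gene, black bars for list medians and red points for genes called at an adjusted p under 0.05. The called genes are Mmp9 at 1.16, Itgam at -0.90, Osmr at -1.06 and Ptger4 at -0.76, and vertical scatter within a list has no meaning.

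Among 20 regulators of RANKL and osteoprotegerin in stromal cells, 16 were tested and 2 were called lower, against 1.37% of all tested genes. Osmr, the oncostatin M receptor chain, was at 2.70 and 3.27 FPKM in R and at 6.85 and 7.78 FPKM in vehicle. Its log2 fold change was -1.06 (SE 0.14; limma, Benjamini-Hochberg adjusted p = 0.0281), a call lost on the TPM scale and under both looser filters, as given above. Ptger4, a prostaglandin E2 receptor, was at 3.68 and 4.09 FPKM in R and at 7.21 and 7.31 FPKM in vehicle. Its log2 fold change was -0.76 (SE 0.12; limma, Benjamini-Hochberg adjusted p = 0.0499), and it did not pass without vehicle replicate 1 (adjusted p = 0.168) or vehicle replicate 2 (adjusted p = 0.141), without the variance trend (adjusted p = 0.0578), or on the TPM scale and under both looser filters. The median of this list was -0.01, and 6 of the 16 had an unadjusted p under 0.05, against 16.0% of all tested genes. Of the cytokines in it, Il6 was at 0.205 to 0.551 FPKM and Il11 at 0.0824 to 0.194 FPKM, both below the filter, and both were named after their values were seen.

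Of 30 genes of RANK signal transduction, which include the adaptor TRAF6, NF-kB and AP-1, 28 were tested and limma called 0, with 0 at an unadjusted p under 0.05. The median log2 fold change was -0.02. The member with the smallest p was Tab2, an adaptor of the kinase TAK1, with group means (n = 2) of 28.5 ± 4.56 FPKM (SD) for R, 34.8 ± 1.85 FPKM (SD) for vehicle and a limma Benjamini-Hochberg adjusted p = 0.432. Fos, the AP-1 subunit required for osteoclast formation, was chosen after its values were seen and was at 141 to 192 FPKM over the 4 libraries.

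The 10 genes of ITAM co-stimulation, the second signal that osteoclast precursors need beside RANK, all had log2 fold changes below 0. Their median was -0.38, limma called 0 of them, and 5 had an unadjusted p under 0.05, against 16.0% of all tested genes. Blnk, a linker of the kinase SYK, had the smallest p, at 7.70 and 6.59 FPKM in R and 12.4 and 12.7 FPKM in vehicle (limma, Benjamini-Hochberg adjusted p = 0.0563). The macrophage and monocyte markers had a median of -0.64 in the same comparison, and their part in these values and in those of the brakes and resorption lists below was not tested.

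In the list of the CSF1 axis and precursor factors, 8 of 8 genes were tested, limma called 0 and the median was -0.06. Of these, 3 had an unadjusted p under 0.05, against 16.0% of all tested genes. Il34, the second ligand of the CSF1 receptor, had the smallest p, at 8.52 and 8.32 FPKM in R and 5.41 and 4.86 FPKM in vehicle (limma, Benjamini-Hochberg adjusted p = 0.0782). The list of transcriptional brakes of osteoclast formation held 8 genes, their repressor Prdm1 included. Of these 8, 7 lay below 0 on the log2 scale, Prdm1 among them, and the median of the list was -0.29. Limma called 0 of these 8, and 5, again with Prdm1, had an unadjusted p under 0.05, against 16.0% of all tested genes. Id2, an inhibitor of DNA binding, was at 23.3 and 23.2 FPKM in R and at 41.0 and 37.2 FPKM in vehicle (limma, Benjamini-Hochberg adjusted p = 0.0555). Of 8 further genes of cell fusion limma called 0, with a median of 0.01. An unadjusted p under 0.05 was reached by 2, against 16.0% of all tested genes. The smallest p was that of Cd47, with group means (n = 2) of 22.8 ± 1.77 FPKM (SD) for R, 31.8 ± 0.497 FPKM (SD) for vehicle and a limma Benjamini-Hochberg adjusted p = 0.154.

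Of 24 genes of the acid and matrix resorption machinery, 22 were tested and 1 was called higher, against 0.345% of all tested genes. Mmp9, a gelatinase of osteoclasts and other myeloid cells, was at 9.11 and 9.51 FPKM in R and at 3.33 and 3.94 FPKM in vehicle. Its log2 fold change was 1.16 (SE 0.13; limma, Benjamini-Hochberg adjusted p = 0.0155), and the call was lost with no filter. The other 21 had 17 values below 0 and 4 above, and the median of the 22 was -0.25, beside -0.64 for the macrophage and monocyte markers. Of the 22, 8 had an unadjusted p under 0.05, against 16.0% of all tested genes. Ctsk, the collagen-degrading cathepsin of osteoclasts, was chosen after its values were seen, at 49.1 and 38.0 FPKM in R and 37.5 and 36.0 FPKM in vehicle, and was not called. The genes of this list below the filter were Calcr and Car2, the carbonic anhydrase that supplies protons, at most 0.115 FPKM.

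Of 14 genes of integrin attachment and the sealing zone, all tested, 1 was called lower, against 1.37% of all tested genes. The median was -0.08, and 4 had an unadjusted p under 0.05, against 16.0% of all tested genes. Itgam, an integrin chain of myeloid cells that is also in the macrophage marker list, was at 15.1 and 15.2 FPKM in R and at 31.3 and 27.2 FPKM in vehicle. The log2 fold change was -0.90 (SE 0.13; limma, Benjamini-Hochberg adjusted p = 0.0346), and the call was lost without vehicle replicate 1 (adjusted p = 0.188), on the TPM scale and under both looser filters. Of 23 relatives in the TNF and TNF receptor superfamilies, 13 were tested, limma called 0 and the median was -0.15. Of the 13, 4 had an unadjusted p under 0.05, against 16.0% of all tested genes. Tnfrsf12a, the receptor for TWEAK, had the smallest p, at 30.1 and 27.2 FPKM in R and 18.2 and 17.6 FPKM in vehicle (limma, Benjamini-Hochberg adjusted p = 0.0705). Tnfsf10, which encodes TRAIL, the other ligand that osteoprotegerin binds, was at 0.0295 and 0.0105 FPKM in R and 0.291 and 0.212 FPKM in vehicle. These values rest on 3 and 1 reads in R and 27 and 20 reads in vehicle. The gene was below the filter, and was named after its values were seen.

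The genes whose values ran most closely with a member over the 4 libraries were found by the Euclidean distance between profiles of log2(FPKM + 1), each minus its own mean. For Itgb3 they were Col5a2, a fibrillar collagen chain, at a distance of 0.0247, and Emp1 at 0.0381. Col5a2 was at 152 and 181 FPKM in R and at 111 and 114 FPKM in vehicle. For Atp6v0d2 they were Lat2, an adaptor of leukocytes, at 0.0305, and Il10rb, a chain of the interleukin 10 receptor, at 0.0436. Lat2 was at 9.79 and 8.77 FPKM in R and at 13.5 and 13.7 FPKM in vehicle. The nearest profiles were Wdr35 and Tcaf2 for Tnfrsf11b, Zfp105 and Ube2d2a for Tnfsf11, and Cyp26b1 and Smarcad1 for Tnfrsf11a. They were Mier1 and Zcchc2 for Nfatc1 and H2afz and Mbd6 for Acp5, and all 14 distances were at most 0.0436. Over 4 libraries such closeness is a description and carries no test.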

How the data were processed

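The authors deposited 1 FPKM value per gene and library, per the file headers. The builds GRCm38 and mm10 and edgeR 3.18.1 are named per the submitters' processing notes, with no role, and for the aligner, the counter and the annotation nothing is given in the sources used here. The 10 unnamed columns hold no value and were not used. Symbols, positions and union exon lengths came from GENCODE M21, which matched 54495 of 54532 genes. FPKM multiplied by length gave whole reads within 0.02 for 96.3 to 96.4% of values above 0, and 16534440 to 18085183 reads per library over genes that were whole in every library. Nfatc1 was not whole, so no reads are given for it. At this depth 1 FPKM equals 35.3 to 38.6 reads of a 2 kb gene. R was compared with vehicle on log2(FPKM + 1) in limma 3.58.1 (R 4.3.3), without further terms and with a variance trend, over genes that averaged 1 FPKM or more. Benjamini-Hochberg adjustment ran over all of them, with calls at an adjusted p under 0.05. The scale understates changes of low genes. The fit had 2 residual and 3.83 prior degrees of freedom. Intervals of fold changes are 95% and unadjusted.

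Members, lists and tests were chosen with earlier results of these data known. Named genes are all members, the called genes of each pathway list (at most 4, or the smallest p where none was called), the first 3 of each marker list and the 2 protein-coding profiles nearest each tested member. Fcgr1, Lyz2, Col1a1, Col1a2, Ibsp, Bglap, Bglap2, Sost, Cd4, Trac, Camp, Itgav, Pf4, Ppbp, Gp1bb, Gp6 and Car2 fall outside this rule. They were named after their values were seen, as were the genes marked so in the text. On simulated libraries with 200 changed genes among 11504, the fit made 183 calls, 27 of them false, so the false share exceeded the threshold. It recovered 63.2% of genes with a log2 change of 1 and 100% of those with 2. The simulated reads had the same dispersion for every gene and group and no length trend. These shares need not hold for the libraries here, where the R replicates differed by gene length. Alternatives were other pseudocounts, filters and scalings, voom on recovered reads, a replicate block and leaving out each library.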

Additional observations from a re-analysis of the deposited data

How the results depend on the processing

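Calls among the 10 genes appeared in 2 of the 15 alternatives, with 1 higher (Itgb3) and 1 lower (Atp6v0d2) under the replicate block. Leaving out 1 library at a time gave from 0 to 2 higher and from 0 to 1 lower, the upper ends without R replicate 1 (Itgb3, Tnfrsf11b and Atp6v0d2). Itgb3 and Tnfrsf11b stayed above 0, and Atp6v0d2, Nfatc1 and Tnfsf11 below 0, in every alternative that tested them. Tnfrsf11a turned to 0.0033 on the TPM scale, which moved the median of all tested genes to 0.13, and ran from -0.28 to 0.054 when 1 library was left out, where Acp5 ran from -0.10 to 0.15. Over all tested genes, 42 higher and 167 lower became 19 and 104 with a filter at 0.1 FPKM, and 0 and 0 of 24958 without a filter, where 2767 had an unadjusted p under 0.05. Voom on recovered reads gave 78 higher and 232 lower, and 95 and 262 over genes with 10 or more reads, where Oscar had a log2 fold change of 0.48 (adjusted p = 0.798). Removal of the length trend gave 222 higher and 331 lower. Leaving out 1 library gave from 96 to 438 higher and from 193 to 665 lower. On the TPM scale 58 were higher and 124 lower. The cause of the changes with voom, TPM and the length trend was not tested.

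The libraries share only a replicate number: deviations of same-numbered libraries correlated at 0.353 over tested genes, with 2 pairs. With the replicate block limma called 891 genes higher (7.32%) and 1009 lower (8.29%), and Itgb3 and Atp6v0d2 reached adjusted p = 0.0015 and adjusted p = 0.0025. The SE of Itgb3 was 0.143 with the block and 0.140 without it, and that of Atp6v0d2 was 0.135 and 0.126. Neither SE was smaller with the block, and the p-values also depend on the degrees of freedom. Those of the block fit are not given here, so its smaller p-values are not read as stronger evidence. Over all tested genes the median SE was 0.140 with the block and 0.148 without it. The degrees of freedom given above are those of the fit without the block. Of the 127 pathway genes the block fit called 9 higher and 20 lower. Depth limited Oscar, Dcstamp and Ocstamp, with 27, 9 and 6 reads over the 4 libraries.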
